A study of Mus musculus with 8 samples.

Results

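Cd22 and Lair1 encode inhibitory receptors of blood cells, and they are described here with the inhibitory receptors Sirpa, Pirb and Lilrb4a and with the phosphatase genes Ptpn6 and Inpp5d. These 7 genes were picked by symbol from the 13388 genes of the deposited table, and all 7 passed the filter on low values (1 CPM in 2 libraries), Cd22 only through its libraries on OP9-DLL1. The genes were proposed with results of these libraries known, and no source used here says which of them were picked for their values. Cd22 and Lair1 are treated as picked for their response to OP9-DLL1 stroma, so their values are given with no test, also between cell types, where the same libraries enter. The other 5 were tested, and their p-values are not independent of that choice if it used their values too. RNA came from wild-type mouse bone marrow, from cMoPs (common monocyte progenitors, the dividing precursors of monocytes) and from Ly6C+ classical monocytes. Each cell type was sorted and kept for 6 h on OP9-DLL1 cells or on OP9 cells. OP9 is a mouse bone marrow stromal line, and OP9-DLL1 is its derivative that presents DLL1, a Notch ligand. The 4 groups of 2 libraries were therefore cMoPs on OP9-DLL1, cMoPs on OP9, monocytes on OP9-DLL1 and monocytes on OP9, with wild-type genotype and stromal contact shared by all.

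Inhibitory receptors of this kind carry tyrosine motifs, called ITIMs, in the tail inside the cell. When Src-family kinases such as Lyn phosphorylate an ITIM, SH2-domain phosphatases dock there: SHP-1, encoded by Ptpn6, removes phosphate from signalling proteins, and SHIP-1, encoded by Inpp5d, removes it from a membrane inositol lipid. In myeloid cells these receptors restrain activation through ITAM-bearing partners such as TYROBP and FCER1G. Cd22 is a sialic acid-binding lectin known above all from B cells, Lair1 binds collagens, Sirpa binds CD47, Pirb binds MHC class I, and Lilrb4a is the mouse counterpart of a human leukocyte immunoglobulin-like receptor.

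Recovered depth was 47316323 to 62459962 reads per library, and 1 read was worth 0.0151 to 0.0231 CPM (reads relative to library size, back-transformed from the deposited log2 values). By sum the listed markers placed the cells as labelled. The 8 progenitor genes summed to 14801 to 22098 CPM in cMoPs, against 235 to 448 CPM in monocytes, though Mki67 overlapped. The 8 monocyte genes summed to 5645 to 6876 CPM in cMoPs, against 26196 to 42927 CPM in monocytes. Lyz2 alone stood at 22579 to 38233 CPM in monocytes, and Ccr2, Fn1, F13a1, Itgam and S100a4 were also higher there. Ly6c2 was higher in cMoPs (2065 to 2314 CPM) than in monocytes (872 to 1204 CPM). So was Cx3cr1 (8.77 to 15.4 CPM in cMoPs, against 2.04 to 2.51 CPM in monocytes). The 7 stromal genes in the table summed to 2.56 to 6.16 CPM in cMoPs. In monocytes they summed to 6.93 to 21.5 CPM with OP9-DLL1, against 27.0 to 29.2 CPM with OP9. There Pdgfrb went the other way (2.90 to 4.24 CPM with OP9-DLL1, against 0.0346 to 0.214 CPM with OP9), and Vcam1 overlapped. The part of these genes in the results was not tested. Of 12 marker lists, 6 summed higher on OP9-DLL1 than on OP9 in cMoPs without overlap, and 2 summed higher and 4 lower in monocytes. Single genes of a list did not always move with its sum. The monocyte libraries on OP9 stood furthest apart, with 1445 genes over 2-fold between them, against 724 to 804 genes within the other groups.

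The ITIMs are shown because the 5 receptors share them, and the relatives of Sirpa, Pirb and Lilrb4a examined here lack them. No relative of Cd22 or Lair1 was among those examined. Coding sequences of GENCODE M21 (GRCm38) were searched, behind the last stretch of 19 residues with a mean hydropathy of 2.0 or more, for the pattern of isoleucine, valine, leucine or serine, any residue, tyrosine, any pair of residues, and isoleucine, valine or leucine. Cd22 held 4 such motifs, Pirb and Sirpa 3 each, and Lair1 and Lilrb4a 2 each, whereas 483 of 5429 genes with such a membrane stretch (8.9%) held 2 or more. Each line gives 18 coding bases read 5′ to 3′ with the tyrosine codon in capitals, namely all motifs of Cd22 and Lair1 and one of each other receptor.
Cd22 codon 783, chr7:30867494-30867511, minus strand: gttagtTATgccatcttg
Cd22 codon 817, chr7:30867033-30867050, minus strand: gtcactTACtcggtgata
Cd22 codon 843, chr7:30866600-30866617, minus strand: atccatTACtcagagctg
Cd22 codon 863, chr7:30866540-30866557, minus strand: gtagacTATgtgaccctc
Lair1 codon 228, chr7:4009790-4009807, minus strand: gtgacgTATatccagctg
Lair1 codon 257, chr7:4009703-4009720, minus strand: agcacaTATgcagccatc
Sirpa codon 436, chr2:129629954-129629971, plus strand: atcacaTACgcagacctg
Pirb codon 794, chr7:3712786-3712803, minus strand: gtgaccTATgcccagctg
Lilrb4a codon 322, chr10:51496194-51496211, plus strand: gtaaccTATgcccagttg
No such motif was found in Pira2, Lilr4b, Sirpb1a, Sirpb1b or Sirpb1c, relatives whose tails ran to 6 to 38 codons, against 70 to 175 codons in the 5 receptors. Ptpn6 and Inpp5d, which encode cytoplasmic enzymes, had no membrane stretch.

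Cd22 was nearly silent on OP9 and was expressed on OP9-DLL1 in both cell types. In cMoPs it stood at 6.31 and 8.50 CPM on OP9-DLL1, against 0.144 and 0.21 CPM on OP9, which is 862 against 20 reads. In monocytes it stood at 9.74 and 13.3 CPM on OP9-DLL1, against 0.427 and 0.214 CPM on OP9, which is 1160 against 29 reads. All 4 OP9-DLL1 libraries lay above all 4 OP9 libraries. The log2 fold change was 5.40 ± 0.45 in cMoPs (SE, 42.2-fold) and 5.24 ± 0.45 in monocytes (37.7-fold). These sizes rest on 20 and 29 reads on OP9, and on log2(CPM + 1) they were 2.82 in cMoPs and 3.24 in monocytes. The cMoP response minus the monocyte response was 0.16 ± 0.64, and -0.41 on that second scale. At its highest, Cd22 was still the lowest of the 7 genes per kb of annotated exon. On OP9-DLL1 it had 1.47 ± 0.306 CPM per kb of exon in cMoPs and 2.29 ± 0.503 in monocytes (SD, n = 2).

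**Figure D1:**
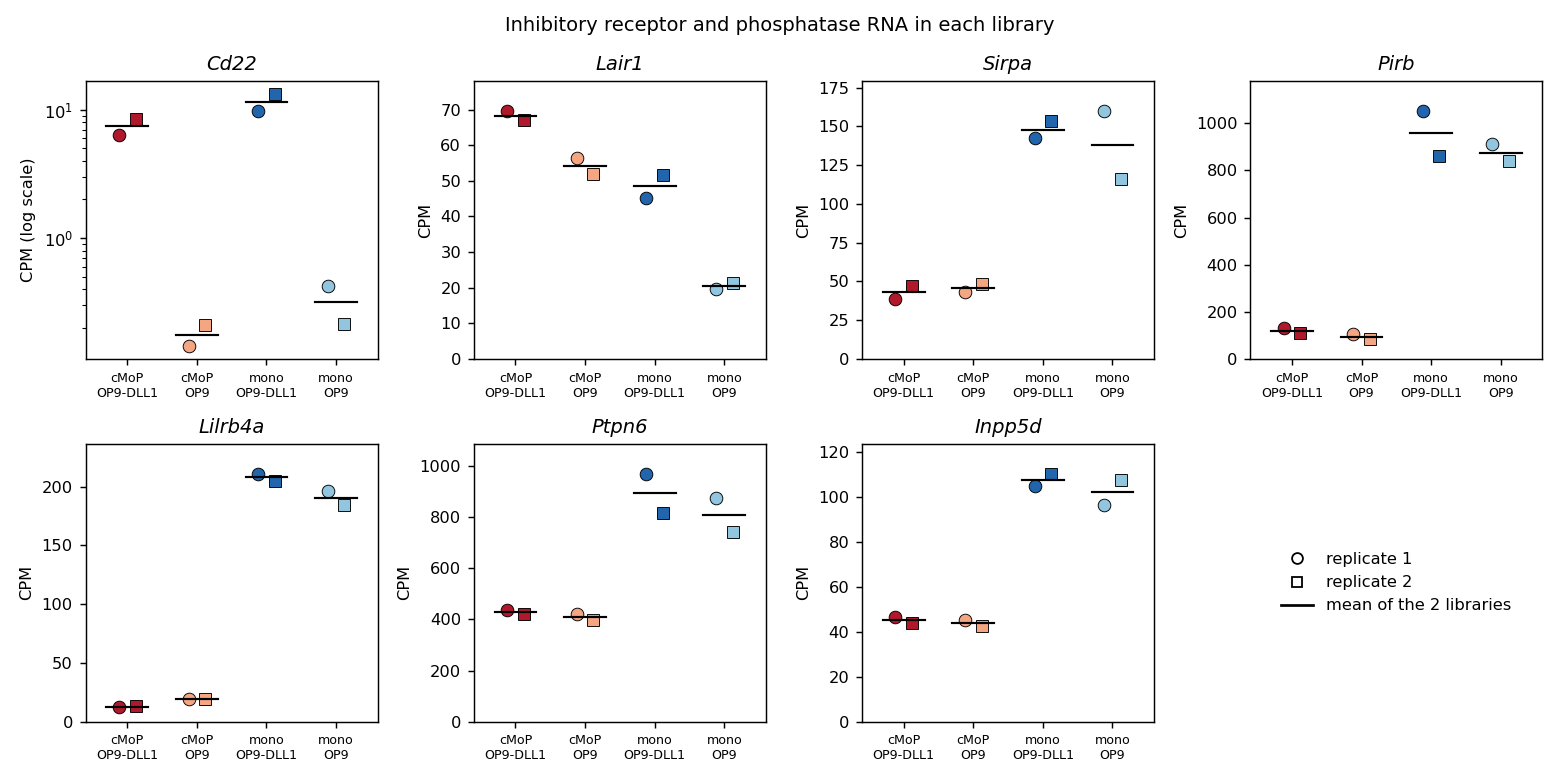
RNA of the 7 genes in every library, in CPM (log axis for Cd22, linear axes from 0 for the others), with circles for replicate 1, squares for replicate 2 and bars for the mean of the 2 libraries. Cd22 separates OP9-DLL1 from OP9 in both cell types, Lair1 does so most in monocytes, and the other 5 genes separate monocytes from cMoPs.

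Because Cd22 is best known from B cells, its values are set beside B cell markers. Of 14 listed B cell genes, Cd79b, a signalling chain of the B cell receptor, and Ighm, the IgM heavy chain, were in the table, and the other 12 were not analysed here. Cd79b stood at 57.8 and 63.1 CPM in cMoPs on OP9-DLL1 and at 44.3 and 47.0 CPM in cMoPs on OP9. In monocytes it stood at 12.9 and 18.0 CPM on OP9-DLL1, against 12.1 and 10.9 CPM on OP9. The OP9-DLL1 libraries were above the OP9 libraries in both cell types, but the fold changes of 0.40 ± 0.18 in cMoPs (limma-trend adjusted p = 0.52) and 0.41 ± 0.18 in monocytes (adjusted p = 0.21) did not pass. For every 100 Cd79b reads there were 12.3 Cd22 reads in cMoPs on OP9-DLL1 and 0.363 in cMoPs on OP9. In monocytes there were 74.6 on OP9-DLL1, against 2.62 on OP9. These ratios contain the Cd22 values for which the gene is treated as picked, so they largely repeat its stroma difference. The part of B cells in the Cd22 values was not tested.

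Ighm stood at 184 and 197 CPM in cMoPs on OP9-DLL1, against 208 and 208 CPM in cMoPs on OP9, and at 55.6 and 82.7 CPM in monocytes on OP9-DLL1, against 95.9 and 67.4 CPM in monocytes on OP9. It did not pass in either cell type (log2 -0.13 ± 0.21, adjusted p = 0.92 in cMoPs, and -0.25 ± 0.21, adjusted p = 0.55 in monocytes). Both markers were higher in cMoPs than in monocytes, Cd79b by 1.99 ± 0.18 on OP9-DLL1 and 2.0 ± 0.18 on OP9 (adjusted p = 1.7e-05 and 2e-05) and Ighm by 1.49 ± 0.21 and 1.37 ± 0.21 (0.00026 and 0.00047), whereas Cd22 had -0.64 ± 0.45 and -0.80 ± 0.45. In bulk libraries fewer cells of a type and less RNA per cell cannot be told apart.

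**Figure D2:**
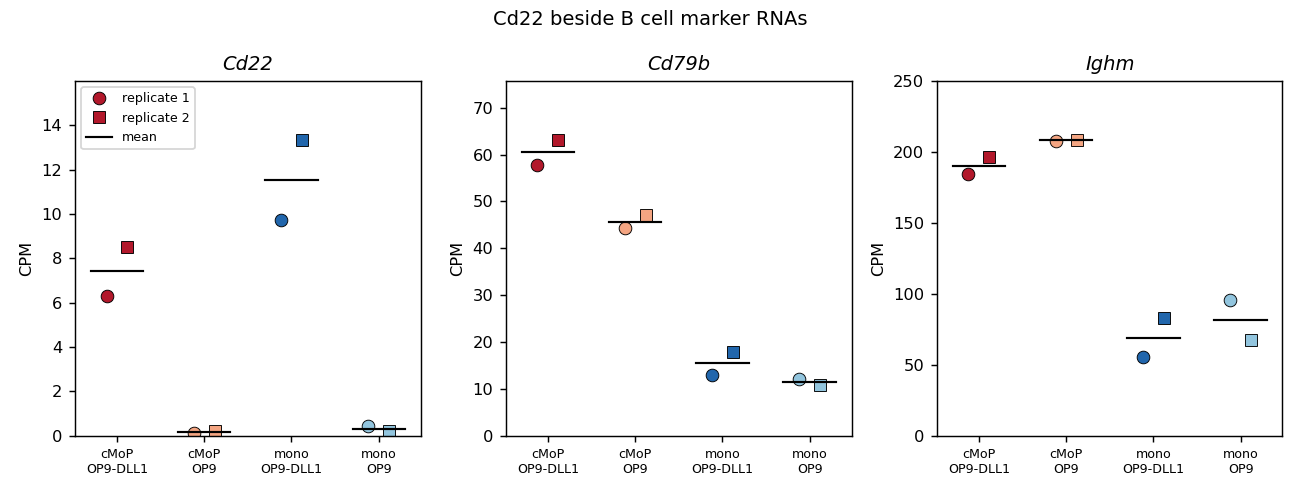
Cd22 and the B cell marker genes Cd79b and Ighm in every library, in CPM on linear axes from 0, with bars for the mean of the 2 libraries. Cd22 separates the stromas, whereas Cd79b and Ighm are higher in cMoPs than in monocytes on both stromas.

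Lair1 encodes a receptor for collagen and for complement C1q. In cMoPs it stood at 69.6 and 66.9 CPM on OP9-DLL1, against 56.4 and 52.0 CPM on OP9. In monocytes it stood at 45.3 and 51.7 CPM on OP9-DLL1, against 19.7 and 21.2 CPM on OP9. The OP9-DLL1 libraries lay above the OP9 libraries of the same cell type in both cases, and monocytes on OP9-DLL1 remained below all 4 cMoP libraries. The log2 fold change was 0.33 ± 0.13 in cMoPs (1.26-fold) and 1.24 ± 0.13 in monocytes (2.37-fold), so that the cMoP response minus the monocyte response came to -0.91 ± 0.19. The cMoP minus monocyte difference was 0.50 ± 0.13 on OP9-DLL1 and 1.40 ± 0.13 on OP9, given with no test. These values share their libraries with the responses above.

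The start regions of Cd22 and Lair1 are shown because both genes had higher values on a Notch ligand, and RBPJ, the DNA-binding partner of the Notch intracellular domain, recognises the letters TGGGAA. The RefSeq windows (GRCm38.p6, 250 bases before to 50 after the start, read 5′ to 3′ on the gene's strand) are printed with TGGGAA in capitals.
Cd22, chr7:30878979-30879278, minus strand: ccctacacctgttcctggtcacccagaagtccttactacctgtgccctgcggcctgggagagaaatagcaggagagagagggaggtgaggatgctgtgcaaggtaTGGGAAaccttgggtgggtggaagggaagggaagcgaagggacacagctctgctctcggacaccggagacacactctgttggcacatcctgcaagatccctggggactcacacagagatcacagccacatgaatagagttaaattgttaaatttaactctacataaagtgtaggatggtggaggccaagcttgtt
Lair1, chr7:4063155-4063454, minus strand: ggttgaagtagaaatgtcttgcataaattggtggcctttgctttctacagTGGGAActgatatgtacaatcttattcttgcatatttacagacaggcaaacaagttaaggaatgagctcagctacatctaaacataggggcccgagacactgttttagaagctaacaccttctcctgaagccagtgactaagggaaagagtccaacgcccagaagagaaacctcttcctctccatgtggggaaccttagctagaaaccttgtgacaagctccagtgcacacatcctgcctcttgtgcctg
Each window held 1 match of TGGGAA on the gene's strand, beginning 145 bases before the RefSeq start of Cd22 and 200 bases before that of Lair1. The Cd22 window lay within the gene as placed by GENCODE M21 (chr7:30865402-30880342), so the region before that GENCODE start was not searched. Searched on both strands, the same letters were in 25.6% of 32851 promoter windows of this length, and among the members also in Ptpn6 and Inpp5d but not in Pirb. The letters GAGGAA, a core of sites for the myeloid factor PU.1, matched once in the Lair1 window, not in the Cd22 window, 3 times in Pirb, and in 28.3% of all windows; both sets of letters were in 7.59%. The table matched 5 of the 7 members; Sirpa and Lilrb4a are named only. A match of letters is a description and not a binding site.

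None of the other 5 genes passed for the stroma in either cell type. With limma-trend 0 of 5 passed in monocytes, where 6.39% of all genes tested passed, and 0 of 5 passed in cMoPs, where 0.77% passed. At an unadjusted p under 0.05 the counts were 0 in monocytes and 2 in cMoPs (Pirb and Lilrb4a), without a share of all genes to set them against. Voom on recovered reads also called 0 in each, and voom with sample quality weights called 0 in monocytes and 1 in cMoPs. For the difference of responses 0 of 5 passed, against 0.0523% of all genes (0.0299% higher and 0.0224% lower), with 1 at an unadjusted p under 0.05 (Lilrb4a) and 0 by either form of voom.

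Sirpa encodes the receptor that reads the self signal CD47. It stood at 38.6 and 47.3 CPM in cMoPs on OP9-DLL1, against 43.3 and 48.4 CPM in cMoPs on OP9, and at 142 and 153 CPM in monocytes on OP9-DLL1, against 160.0 and 116 CPM in monocytes on OP9. The stroma groups overlapped in both cell types, and the log2 fold changes were -0.10 ± 0.17 in cMoPs (95% interval -0.49 to 0.29, adjusted p = 0.93) and 0.12 ± 0.17 in monocytes (-0.27 to 0.51, adjusted p = 0.75). Pirb, the paired immunoglobulin-like receptor that binds MHC class I, stood at 131 and 109 CPM in cMoPs on OP9-DLL1, against 104 and 84.6 CPM in cMoPs on OP9. In monocytes it stood at 1053 and 863 CPM on OP9-DLL1, against 911 and 838 CPM on OP9. Its stroma groups overlapped in monocytes and did not in cMoPs, with log2 fold changes of 0.35 ± 0.15 in cMoPs (0.01 to 0.69, adjusted p = 0.52) and 0.13 ± 0.15 in monocytes (-0.21 to 0.47, adjusted p = 0.69).

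Lilrb4a, also known as gp49B, was the member nearest to a call in cMoPs. It stood at 12.2 and 13.2 CPM in cMoPs on OP9-DLL1, against 19.6 and 19.2 CPM in cMoPs on OP9, and at 211 and 205 CPM in monocytes on OP9-DLL1, against 197 and 184 CPM in monocytes on OP9. The groups overlapped in neither cell type, but the values lay lower on OP9-DLL1 in cMoPs and higher in monocytes. The log2 fold change was -0.61 ± 0.12 in cMoPs (-0.88 to -0.34, adjusted p = 0.062) and 0.13 ± 0.12 in monocytes (-0.14 to 0.40, adjusted p = 0.59). In cMoPs the adjusted p was 0.046 with quality-weighted voom. The cMoP response minus the monocyte response was -0.74 ± 0.17 (adjusted p = 0.21), and it passed without replicate 2 of the monocytes on OP9 (adjusted p = 0.035).

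Ptpn6 and Inpp5d encode the phosphatases that dock on ITIMs. Ptpn6 stood at 436 and 419 CPM in cMoPs on OP9-DLL1, against 421 and 397 CPM in cMoPs on OP9, and at 969 and 816 CPM in monocytes on OP9-DLL1, against 873 and 742 CPM in monocytes on OP9. Inpp5d stood at 46.7 and 44.1 CPM in cMoPs on OP9-DLL1, against 45.3 and 42.5 CPM in cMoPs on OP9, and at 105 and 110.5 CPM in monocytes on OP9-DLL1, against 96.5 and 108 CPM in monocytes on OP9. The stroma groups of both genes overlapped in each cell type. The 95% intervals of the log2 fold change ran from -0.22 to 0.34 for Ptpn6 and from -0.22 to 0.32 for Inpp5d in cMoPs (adjusted p = 0.94 and 0.96), and from -0.14 to 0.43 and from -0.19 to 0.35 in monocytes (adjusted p = 0.55 and 0.77).

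**Figure D3:**
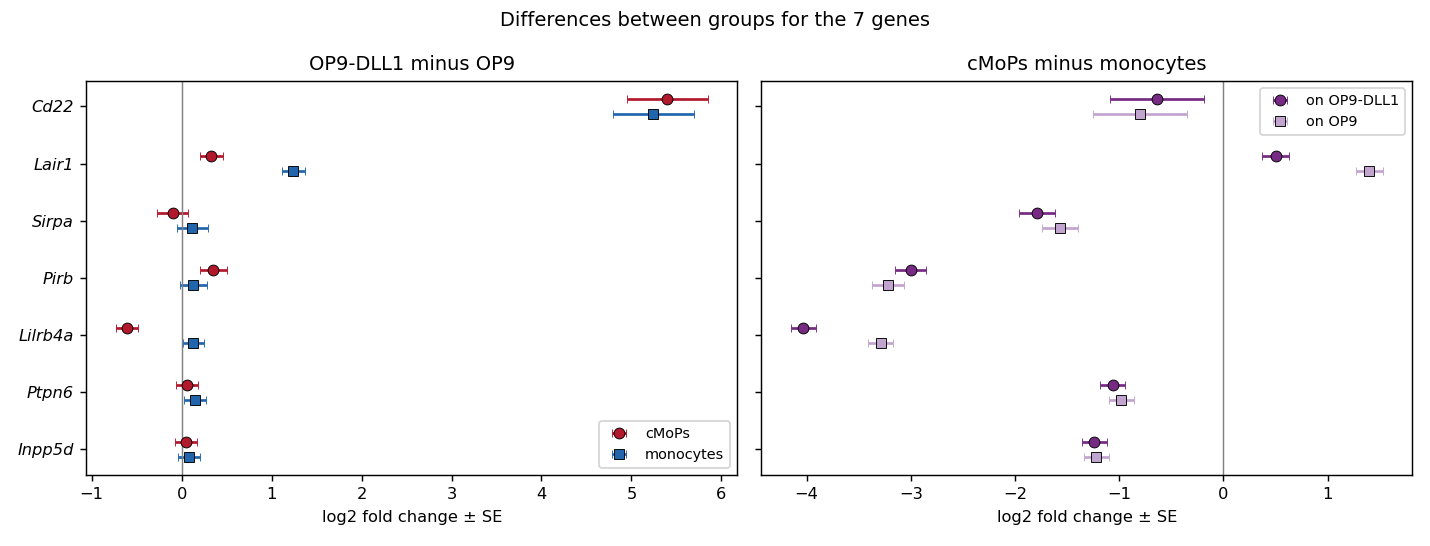
Log2 fold changes with SE for the 7 genes, OP9-DLL1 minus OP9 on the left (circles for cMoPs, squares for monocytes) and cMoPs minus monocytes on the right (circles on OP9-DLL1, squares on OP9). On the left only Cd22 lies beyond 5 and only Lair1 in monocytes among the rest lies beyond 1; on the right Lair1 is above 0 and Sirpa, Pirb, Lilrb4a, Ptpn6 and Inpp5d are below it on both stromas.

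Between the cell types all 5 genes tested (Sirpa, Pirb, Lilrb4a, Ptpn6 and Inpp5d) were lower in cMoPs on each stroma. In the same comparisons 57.4% of all genes passed on OP9-DLL1 (29.2% lower in cMoPs) and 56.5% on OP9 (27.7% lower), so most genes differed between these cells. The values were larger for the 3 receptors than for the phosphatase genes. Lilrb4a was 16.4-fold lower in cMoPs on OP9-DLL1 (-4.03 ± 0.12, adjusted p = 1e-07) and 9.81-fold lower on OP9 (-3.29 ± 0.12, adjusted p = 2.5e-07). Pirb was 7.97-fold lower on OP9-DLL1 (-3.00 ± 0.15, adjusted p = 7.1e-07) and 9.30-fold lower on OP9 (-3.22 ± 0.15, adjusted p = 7.4e-07). Sirpa was 3.46-fold lower on OP9-DLL1 (-1.79 ± 0.17, adjusted p = 2.7e-05) and 2.97-fold lower on OP9 (-1.57 ± 0.17, adjusted p = 7.1e-05).

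Inpp5d was 2.37-fold lower in cMoPs on OP9-DLL1 (-1.24 ± 0.12, adjusted p = 2.8e-05) and 2.32-fold lower on OP9 (-1.22 ± 0.12, adjusted p = 3.8e-05). Ptpn6 was 2.08-fold lower on OP9-DLL1 (-1.06 ± 0.12, adjusted p = 9.6e-05) and 1.97-fold lower on OP9 (-0.98 ± 0.12, adjusted p = 0.00017). For Cd22 the cMoP minus monocyte difference was -0.64 ± 0.45 on OP9-DLL1 and -0.80 ± 0.45 on OP9, given with no test.

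Per kb of exon, Ptpn6 was the highest of the 7 genes in all 4 groups, with 153 ± 4.39 and 146 ± 6.04 CPM per kb in cMoPs on OP9-DLL1 and on OP9, and 319 ± 38.6 and 288 ± 33.1 in monocytes on OP9-DLL1 and on OP9 (SD, n = 2 each). Pirb came next everywhere, with 26.8 ± 3.37 CPM per kb in cMoPs and 214 ± 30.0 in monocytes on OP9-DLL1. In monocytes on either stroma the order then ran Lilrb4a, Sirpa, Inpp5d, Lair1 and Cd22, with Lilrb4a at 39.8 ± 0.873 and Lair1 at 6.49 ± 0.604 CPM per kb on OP9-DLL1. In cMoPs on OP9-DLL1 it ran Lair1 (9.14 ± 0.257), Sirpa (8.74 ± 1.26), Inpp5d (5.97 ± 0.243), Lilrb4a (2.43 ± 0.143) and Cd22. Lair1 and Sirpa overlapped there, and on OP9 Sirpa (9.34 ± 0.736) stood above Lair1 (7.25 ± 0.416). These lengths join all annotated exons of a gene, 7.47 kb for Lair1 and 4.91 kb for Sirpa. The single coding transcript searched below was shorter for Lair1 than for Sirpa (2397 against 3883 windows of 100 bases). The order of genes with close values therefore depends on the length used. Lair1 thus held a higher place among these receptors in cMoPs than in monocytes.

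Several receptors have relatives that lack ITIMs and signal through ITAM adaptors, and reads of near-identical stretches may be split between them. All windows of 100 bases in Cd22, Lair1, Sirpa, Ptpn6 and Inpp5d transcripts were found in no other gene, whereas 24.6% of those of Pirb also occurred in other genes, Pira2 among them. Of Pira2 windows 86.5% were shared, and of Lilrb4a windows 100% were in an overlapping gene model, Gm49339, which is not analysed here, and 14.3% in Lilr4b. Values of Pirb, Pira2, Lilrb4a and Lilr4b are uncertain to that extent. Shared windows made up 25.4% of Sirpb1a, 50.2% of Sirpb1b and 55.6% of Sirpb1c, all with each other.

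Lilr4b, also called gp49A, fell in cMoPs on OP9-DLL1. It stood at 135 and 119 CPM in cMoPs on OP9-DLL1, against 218 and 217 CPM in cMoPs on OP9 (log2 -0.78 ± 0.12, adjusted p = 0.022), a call that ended without any single cMoP library and without the variance trend (adjusted p up to 0.20). In monocytes it stood at 1279.9 and 1219 CPM on OP9-DLL1, against 1696 and 1423 CPM on OP9 (-0.31 ± 0.12, adjusted p = 0.16; 0.013 without replicate 2 of the monocytes on OP9). Pira2, an activating relative of Pirb, stood at 7.33 and 6.08 CPM in cMoPs on OP9-DLL1, against 7.01 and 4.99 CPM in cMoPs on OP9, and at 96.4 and 76.8 CPM in monocytes on OP9-DLL1, against 103 and 83.1 CPM in monocytes on OP9. Its stroma groups overlapped and it did not pass in either cell type (adjusted p = 0.89 in cMoPs and 0.83 in monocytes).

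Sirpb1a, Sirpb1b and Sirpb1c are activating relatives of Sirpa. In monocytes Sirpb1a stood at 102 and 114 CPM on OP9-DLL1, against 60.2 and 47.2 CPM on OP9, without overlap but short of the threshold (1.02 ± 0.34, adjusted p = 0.11). It passed there with voom, with quality-weighted voom, on log2(CPM + 1) and in a fit of those 4 libraries alone (lowest adjusted p = 0.0066), and the authors' deposited table gives an adjusted p of 0.016. In cMoPs it stood at 4.42 and 4.19 CPM on OP9-DLL1, against 1.19 and 2.80 CPM on OP9 (1.24 ± 0.34, adjusted p = 0.2; 0.019 without replicate 2 of the cMoPs on OP9). Sirpb1b and Sirpb1c had log2 fold changes of 0.53 ± 0.18 and 0.46 ± 0.16 in cMoPs and of 0.48 ± 0.18 and 0.42 ± 0.16 in monocytes, and neither passed (adjusted p from 0.15 to 0.37), though voom called Sirpb1c in monocytes (adjusted p = 0.047). All 5 relatives were lower in cMoPs than in monocytes on both stromas, from 7.14-fold for Lilr4b on OP9 to 42.9-fold for Sirpb1c on OP9. For the stroma in cMoPs, the authors' own adjusted p was also smaller than here for Lilr4b (0.0023) and Lilrb4a (0.05).

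**Figure D4:**
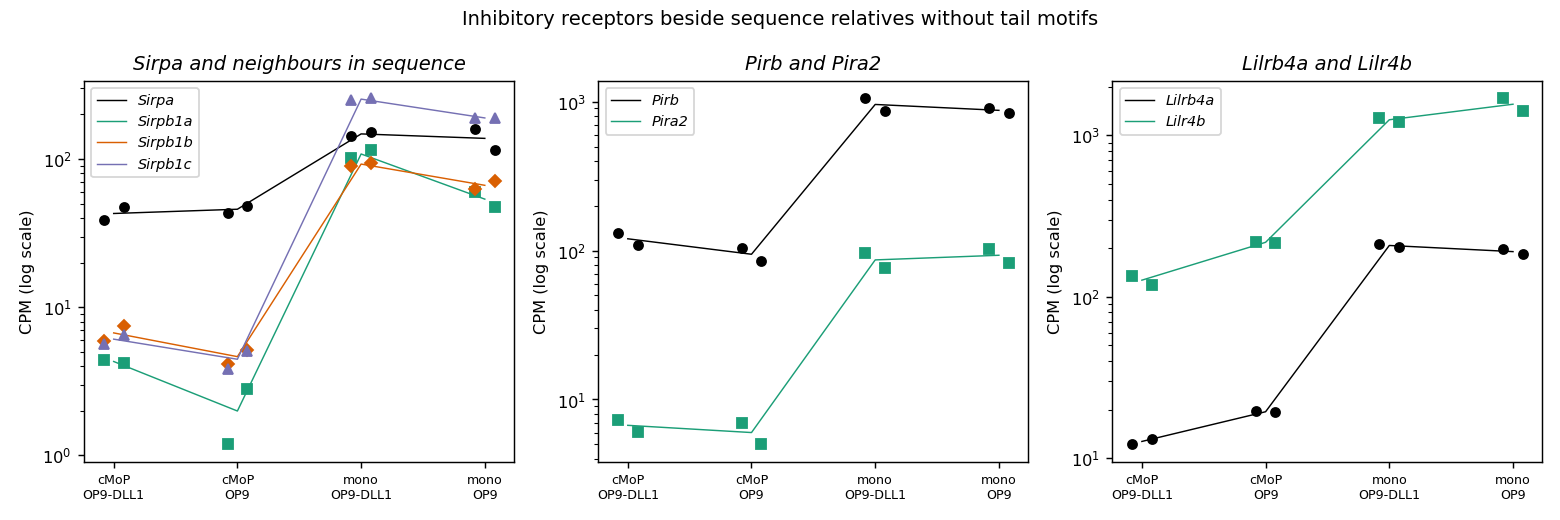
CPM on log axes of Sirpa, Pirb and Lilrb4a (black) and of relatives without a tail ITIM (colours), with a point per library and lines joining group means. Receptors and relatives are higher in monocytes than in cMoPs, and Lilr4b lies above Lilrb4a in all 8 libraries.

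Other genes of the pathway were counted from 5 lists of 99 tested genes in all. Listed names outside the table are not analysed here. The list called other inhibitory receptors also holds Cd274, which encodes a ligand, and an ITIM was not required of its genes. In monocytes 12 of 24 other inhibitory receptors passed for the stroma, with 10 higher on OP9-DLL1 and 2 lower, where 3.36% of all genes passed higher and 3.03% lower; the list's median log2 fold change was 0.49, against 0.01 for all genes. Centring each library on its median left 8 higher and 2 lower in the list and moved the share of higher calls among all passing genes to 39.8%, against 52.6%. Cd244a, a receptor for CD48, averaged 231 ± 27.4 CPM on OP9-DLL1, against 39.4 ± 10.5 CPM on OP9 (2.57 ± 0.21, adjusted p = 0.00049). Pecam1, the adhesion receptor CD31, averaged 37.2 ± 1.09 CPM on OP9-DLL1, against 6.98 ± 0.203 CPM on OP9 (2.41 ± 0.15, adjusted p = 0.00011). Siglece, like Cd22 a sialic acid-binding lectin, averaged 91.6 ± 1.86 CPM on OP9-DLL1, against 29.5 ± 6.89 CPM on OP9 (1.65 ± 0.17, adjusted p = 0.0013). Fcgr2b, the inhibitory IgG receptor, rose by 1.04 ± 0.14 (adjusted p = 0.0039). The 2 that fell, named after their values were seen, were Clec12a (-1.06 ± 0.19, adjusted p = 0.013) and Cd200r1 (-0.78 ± 0.16, adjusted p = 0.027), and both calls ended without either monocyte library on OP9-DLL1, each left out in turn.

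Markers of other cells moved with the stroma in the same monocyte libraries. The 5 conventional dendritic cell genes in the table, of 8 listed, summed to 34.6 to 63.7 CPM on OP9-DLL1, against 7.33 to 18.8 CPM on OP9. Of these Itgax, the integrin chain CD11c, stood at 22.8 to 28.1 CPM on OP9-DLL1, against 1.22 to 1.44 CPM on OP9. Xcr1, a marker of one dendritic cell subset, stood at 0.913 to 1.08 CPM on OP9-DLL1, against 0.456 to 0.681 CPM on OP9. Mgl2 and Batf3 were also higher, and Cd209a overlapped. The 3 plasmacytoid dendritic cell genes in the table, of 7 listed, summed to 147 to 157 CPM on OP9-DLL1, against 126 to 143 CPM on OP9. Among them Tcf4 and Cox6a2 were higher and Bst2 overlapped. The platelet chemokine genes Pf4 and Ppbp, the 2 in the table of 5 megakaryocyte and platelet genes listed, summed to 12.7 to 22.2 CPM on OP9-DLL1, against 113 to 195 CPM on OP9. The neutrophil genes (10 of 11) summed to 1612 to 1614 CPM on OP9-DLL1, against 1949 to 2410 CPM on OP9. Of these Mmp8 (534 to 927 CPM on OP9-DLL1, against 1130.5 to 1520 CPM on OP9) and Retnlg were lower. Csf3r was higher (220 to 237 CPM on OP9-DLL1, against 100 to 130 CPM on OP9), and the others overlapped. The 8 monocyte genes summed to 26196 to 32206 CPM on OP9-DLL1, against 34885 to 42927 CPM on OP9. Of these Ly6c2 and Cx3cr1 overlapped, and the others were lower on OP9-DLL1. The part of these markers in the receptor values was not tested.

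On the activating side 5 of 23 receptors and ITAM adaptors passed in monocytes, with 3 higher on OP9-DLL1 and 2 lower. Among all genes 3.36% passed higher and 3.03% lower. One of the 3, Cd300e, reached the filter only through monocytes on OP9-DLL1, and without it 2 of 22 were higher and 2 lower. Trem3 rose by 1.05 ± 0.11 (adjusted p = 0.0014), and Treml4 by 2.79 ± 0.47 (adjusted p = 0.011). Cd300e, named after its values were seen, had 241 reads on OP9-DLL1 and 1 read on OP9, a ratio of 233 (95% counting interval 41.5 to 9257), which is given with no test because of that filter. Fcgr1, the high-affinity IgG receptor, fell by 1.62 on the log2 scale (SE 0.25, adjusted p = 0.0074) and Trem2, a lipid receptor, by 0.80 (SE 0.16, adjusted p = 0.019). Of these calls that of Trem3 held with each library left out; that of Fcgr1 ended without replicate 2 on OP9-DLL1, and those of Treml4 and Trem2 without either library on OP9-DLL1.

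Among kinases 2 of 10 passed in monocytes, both higher on OP9-DLL1, where 3.36% of all genes passed higher. Lyn, which phosphorylates ITIMs, rose by 0.62 ± 0.10 (adjusted p = 0.01). Of 30 other phosphatases and adaptors 6 passed, where 6.39% of all genes did. The 4 that rose were Ptprc, the phosphatase CD45 (0.92 ± 0.11, adjusted p = 0.0022), Themis2 (0.68 ± 0.14, adjusted p = 0.023), Ptpn1 (1.15 ± 0.24, adjusted p = 0.025) and, named after its values were seen, Ptpn18 (0.83 ± 0.20, adjusted p = 0.044). The adaptor Dok2 fell to 250.5 ± 17.1 CPM on OP9-DLL1, against 725 ± 199.5 CPM on OP9 (-1.51 ± 0.17, adjusted p = 0.0019), and Ubash3b, also named after its values were seen, had -0.68 ± 0.14 (adjusted p = 0.027). Without either library on OP9-DLL1 the calls of Lyn, Themis2, Ptpn1, Ptpn18 and Ubash3b ended, and those of Ptprc and Dok2 did not. That of Ptpn18 also ended without replicate 1 on OP9 or after centring.

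Of the 12 genes tested from the list of ligands and ligand-forming enzymes, 3 passed in monocytes, where 6.39% of all genes did. No enzyme of that list was tested, and the 12 are called ligands here. The MHC class I genes H2-D1, a ligand chain for PIR-B (1.78 ± 0.25, adjusted p = 0.0049), and B2m (0.65 ± 0.13, adjusted p = 0.019) rose, and Fn1, fibronectin, fell to 251 ± 53.5 CPM on OP9-DLL1, against 609.8 ± 14.6 CPM on OP9 (-1.30 ± 0.16, adjusted p = 0.0025). The call of H2-D1 ended without replicate 2 on OP9-DLL1 and that of B2m without either library there. Over the 5 lists 28 of 99 genes passed in monocytes (27 without Cd300e), where 6.39% of all genes did. With either library on OP9-DLL1 left out fewer passed, in the lists and among all genes.

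In cMoPs 3 of the 24 inhibitory receptors passed, all higher on OP9-DLL1, where 0.464% of all genes passed higher and 0.307% lower, and the median was 0.50, against 0.01 for all genes. None was lower by limma-trend, at an unadjusted p under 0.05 or by either form of voom. Cd244a averaged 29.9 ± 5.58 CPM on OP9-DLL1, against 9.13 ± 1.16 CPM on OP9 (1.70 ± 0.21, adjusted p = 0.0082), Siglece 119.5 ± 7.93 CPM on OP9-DLL1, against 58.2 ± 8.34 CPM on OP9 (1.04 ± 0.17, adjusted p = 0.031), and Klra2, a C-type lectin-like receptor, 31.2 ± 0.213 CPM on OP9-DLL1, against 18.8 ± 0.458 CPM on OP9 (0.73 ± 0.12, adjusted p = 0.033). Among activating receptors Trem3 (0.68 ± 0.11, adjusted p = 0.031) and Pilrb1 (1.05 ± 0.19, adjusted p = 0.047) rose and Lilr4b fell as given above. The adaptor phosphatase Ubash3b fell (-0.92 ± 0.14, adjusted p = 0.024). The conventional dendritic cell genes summed to 79.8 to 120 CPM in cMoPs on OP9-DLL1, against 46.0 to 67.3 CPM in cMoPs on OP9. Most of that was Mgl2 (69.6 to 112 CPM, against 43.3 to 65.9 CPM), and Batf3 was lower. The T and NK cell genes (2 of 9), progenitor genes (8 of 9), macrophage genes (9 of 10), mast cell group genes (2 of 8) and platelet genes (2 of 5) also summed higher there without overlap. Of the T and NK cell genes only Nkg7 was higher, and Lck was lower. Among macrophage genes Spic rose most (10.0 to 11.4 CPM, against 0 reads), C1qa, C1qb and C1qc were also higher, and Mrc1 was lower. Mcpt8 and Pf4 carried the last 2 sums, as Prg2 overlapped and Ppbp had 0 reads. The part of these markers was not tested. No kinase and no ligand passed; at an unadjusted p under 0.05 there were 2 kinases higher, Lyn among them (0.31 ± 0.10, adjusted p = 0.32), and 1 ligand lower (Fn1), voom called 0 of each, and quality-weighted voom called 1 kinase and 0 ligands. The call of Cd244a ended without replicate 2 of either cMoP group, and the other 6 calls ended without any single cMoP library.

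**Figure D5:**
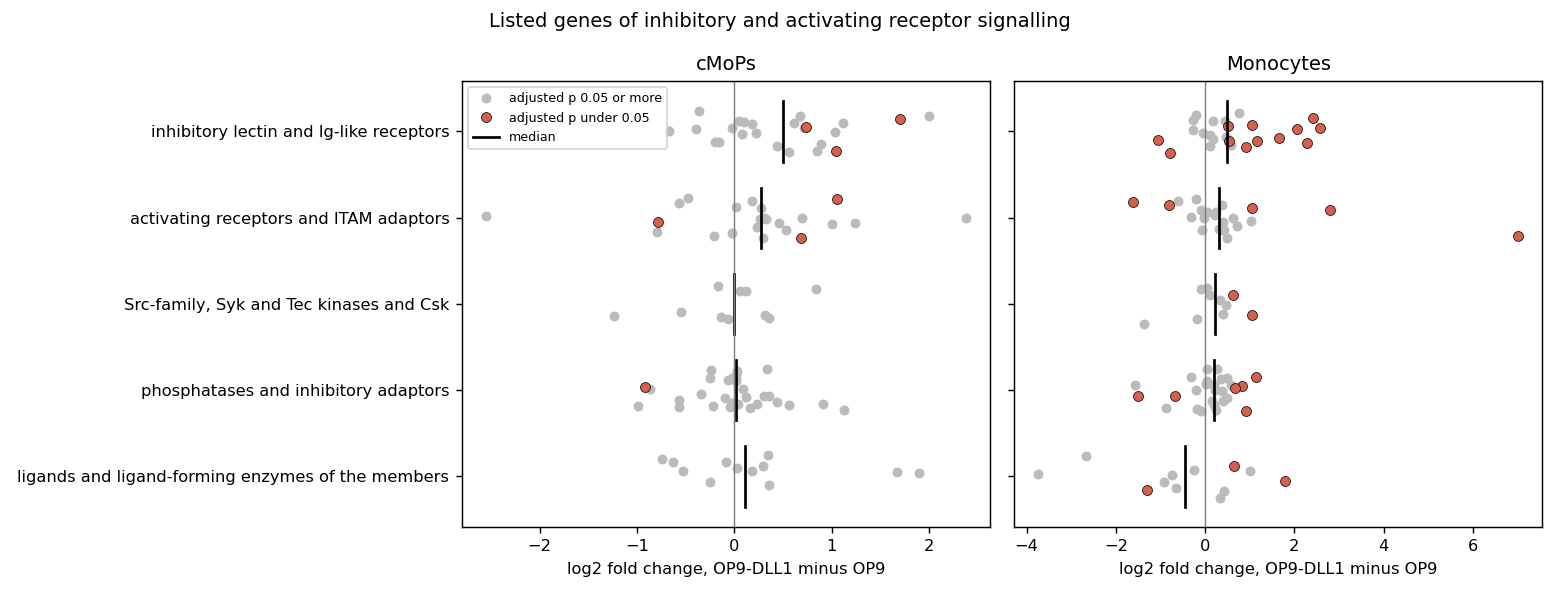
Log2 fold changes, OP9-DLL1 minus OP9, of the 99 listed genes by list, with cMoPs on the left and monocytes on the right; red points have an adjusted p under 0.05 and the black line is the list median. The medians of the inhibitory receptors lie at 0.50 in cMoPs and 0.49 in monocytes.

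The difference of responses passed for 1 of the 99 listed genes, Pecam1 (-2.33 ± 0.21, adjusted p = 0.0094), which stood at 23.5 and 20.1 CPM in cMoPs on OP9-DLL1, against 20.3 and 20.9 CPM in cMoPs on OP9. Its call ended without any single cMoP library, without either monocyte library on OP9-DLL1 and without the variance trend (adjusted p up to 0.12). Among all genes tested 0.0523% passed for the difference. Without replicate 2 of the monocytes on OP9 more passed, in the lists and among all genes. In the other 4 lists 0 genes passed by limma-trend or by either form of voom. At an unadjusted p under 0.05 there were 6 activating receptors, 0 kinases, 5 phosphatases and adaptors and 5 ligands. The share of all genes at that threshold is not given here, so these counts cannot be set against it. Cd300e had 2 reads in cMoPs on OP9-DLL1, against 20 in cMoPs on OP9, and its difference of responses is not given because it rests on 1 read in monocytes on OP9. Ptprc had -0.91 ± 0.15 (adjusted p = 0.13), Dok2 0.94 ± 0.24 (adjusted p = 0.26) and H2-D1 -1.42 ± 0.35 (adjusted p = 0.24), and these passed without replicate 2 of the monocytes on OP9, Ptprc without replicate 1 as well. Trem1 had 0.88 ± 0.25 (adjusted p = 0.33), Fn1 0.67 ± 0.22 (adjusted p = 0.38), Lyn -0.30 ± 0.15 (adjusted p = 0.54) and Tec -0.47 ± 0.29 (adjusted p = 0.64).

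Between cell types most of the pathway was lower in cMoPs. On OP9-DLL1 18 of 24 inhibitory receptors, 19 of 23 activating receptors and adaptors, 7 of 10 kinases, 25 of 30 phosphatases and adaptors and 8 of 12 ligands passed lower, where 29.2% of all genes did, and 2, 2, 0, 1 and 1 passed higher, where 28.2% did. On OP9 the counts were 17, 20, 7, 21 and 7 lower, against 27.7% of all genes, and 4, 2, 0, 0 and 1 higher, against 28.8%. At an unadjusted p under 0.05, 1 kinase was higher on each stroma and 1 phosphatase on OP9; voom called 1 kinase higher on OP9, and quality-weighted voom none of them. Of the listed genes 11 on OP9-DLL1 and 9 on OP9 reached the filter only through the cell type in which they were higher. Without them the counts in the same order of lists were 16, 18, 7, 24 and 6 lower and 1, 2, 0, 1 and 1 higher on OP9-DLL1, and 15, 20, 7, 20 and 4 lower and 3, 2, 0, 0 and 1 higher on OP9. The list medians without them ran from -1.93 (activating receptors) to -0.89 (ligands) on OP9-DLL1, where the median of all genes was -0.01.

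On OP9-DLL1, Fgr was 13.1-fold lower in cMoPs (-3.71 ± 0.25), Lyn 2.96-fold (-1.57 ± 0.10) and Syk 3.37-fold (-1.75 ± 0.15), with adjusted p from 2.7e-06 to 1.1e-05. In the list of inhibitory receptors Fcgr2b (4.80-fold), Clec4a2 (5.92-fold) and Vsir (2.89-fold) were lower. So was Cd274, which encodes a ligand of PD-1 and not a receptor of this kind (19.3-fold). The adjusted p of these 4 genes ran from 1.9e-06 to 3.9e-06. Among adaptors and phosphatases Fyb was 11.1-fold, Ptprc 6.56-fold, Ptpre 3.52-fold and Sh3bp2 3.59-fold lower, with adjusted p from 2.7e-07 to 2.1e-05. In the ligand list Fn1 was 42.1-fold lower, Thbs1 10.5-fold and C1qb 5.62-fold (adjusted p from 1e-07 to 6e-05). Cd300ld, an activating receptor, was 33.5-fold lower (adjusted p = 1.9e-07).

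On OP9, Clec4a2 was 10.9-fold lower in cMoPs, Vsir 2.98-fold, Klra2 3.63-fold and Cd200r1 5.07-fold (adjusted p from 7.1e-07 to 5.5e-06). Fgr was 12.2-fold, Lyn 2.40-fold and Syk 2.92-fold lower (4.9e-06 to 2.9e-05), and Fyb 8.44-fold, Ptprc 3.50-fold, Ptpre 3.33-fold and Dok2 3.28-fold (6e-07 to 4e-05). Fn1 was 66.9-fold, C1qb 8.54-fold and Thbs1 12.1-fold lower (1e-07 to 2.5e-05), and Cd300ld 19.3-fold (4.6e-07). Genes higher in cMoPs were named after their values were seen. Clec12a, a lectin that senses dead cells, was higher by 2.02 ± 0.19 on OP9-DLL1 and 1.35 ± 0.19 on OP9 (adjusted p = 2.2e-05 and 0.0003). Btla, a receptor for HVEM, reached the filter only through cMoPs and is given with no test: with OP9-DLL1 it stood at 8.58 and 7.87 CPM in cMoPs, against 0.298 and 0.476 CPM in monocytes. With OP9 it stood at 3.74 and 5.25 CPM in cMoPs, against 0.104 and 0.735 CPM in monocytes. Clec5a (1.31 ± 0.15 and 1.14 ± 0.15), Trem3 (0.97 ± 0.11 and 1.34 ± 0.11) and Cd47, the ligand of SIRPα (0.64 ± 0.14 and 1.08 ± 0.14), were higher on both stromas (adjusted p from 1.5e-05 to 0.0042). Siglece and Pecam1 were higher on OP9 (0.99 ± 0.17, adjusted p = 0.0012, and 1.56 ± 0.15, adjusted p = 3.3e-05), and Ptpn2 on OP9-DLL1 (0.46 ± 0.12, adjusted p = 0.0095; up to 0.062 with 1 library left out).

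Across the 8 libraries, Pearson correlations of log2 CPM among Sirpa, Pirb, Lilrb4a, Ptpn6 and Inpp5d ran from 0.97 to 0.99, Lair1 correlated with them at -0.72 to -0.64, and Cd22 at 0.07 to 0.23 (n = 8 libraries, which fall into the 4 groups, so these are descriptions without a test). Cd22 and Lair1 correlated at 0.48. Among 9001 genes with at least 5 CPM in their highest group, those most like Cd22 were Sting1 (0.982), Morrbid (0.975), the Notch target Hes1 (0.974), Selplg (0.968) and Atf6b (0.968). Hes1 stood at 2.92 and 3.13 CPM in cMoPs on OP9-DLL1, with 5 reads in all in cMoPs on OP9, and at 11.7 and 11.3 CPM in monocytes on OP9-DLL1, with 3 reads in all in monocytes on OP9. Those most like Lair1 were Ctdspl (0.995), Plac8 (0.994), Matk (0.991), Cenpo (0.982) and Dcaf17 (0.982). Both rankings use the values for which Cd22 and Lair1 are treated as picked. A high rank, that of Hes1 included, therefore follows at least in part from that choice and is no separate evidence. Plac8 averaged 1678 ± 68.8 CPM in cMoPs on OP9-DLL1 and 1279 ± 3.93 CPM in cMoPs on OP9. Its monocyte averages were 976 ± 51.7 CPM on OP9-DLL1, against 216 ± 9.59 CPM on OP9.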

How the data were processed

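RNA was sequenced as read pairs of 150 bases from SMARTer Ultra Low libraries, per the labels' protocols, a kind of kit that does not mark strand. Per the submitters' processing notes, reads were handled with STAR 2.7.9a, Salmon 1.5.2, featureCounts 2.0.3 of Subread, bcl2fastq, limma and edgeR, on build mm10; for the order, annotation, filter and model, no source used here gives details. The deposited table holds log2 CPM per library, normalized by the authors, with 0.5 reads added to each count. It also holds the authors' log2 fold changes and their p-values, and signed linear fold changes (taken as a score), which were not used. Of 13430 deposited entries 42 repeat a gene and were dropped. Whole reads were recovered in 100% of values (tolerance 0.001) and gave the depths.

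The test was limma-trend (R 4.3.3, limma 3.58.1) on those log2 values, two-sided, with a mean for each of the 4 groups of 8 libraries, leaving 4 residual degrees of freedom. It covered 13374 genes that reached 1 CPM in 2 libraries or more (14 left out). A gene passes at a Benjamini-Hochberg adjusted p under 0.05 over all of them, and adjusted p-values are from that fit unless another is named. Counts at an unadjusted p under 0.05 are given without the share of all genes, so they are not read as an excess. The 5 contrasts set OP9-DLL1 against OP9 for cMoPs and for monocytes, took the difference of these responses, and set cMoPs against monocytes on each stroma. CPM values are 2 to the power of the deposited values, as mean ± SD over 2 libraries. Replicates differed by more than counting noise (chi-square per degree of freedom 24 to 157), and nothing in the labels says whether animals or cultures were separate. A p-value therefore reflects only the spread between these libraries, which may be technical. The counting interval covers counting error only.

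The members, lists and rules were chosen with earlier results of these data known. Listed genes that reached the filter only through the side where they were higher are given with no test or counted apart, a step added after seeing the data. Named genes are the 7 members and their near-identical relatives, up to 4 passing genes of each list per comparison by adjusted p (or 2 given as values where none passed), and the 5 genes most correlated with Cd22 and Lair1. A gene that this rule names is not reported here. Positions are from GENCODE M21 (GRCm38). The fit was tested on simulated data and repeated under 16 alternatives.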

Additional observations from a re-analysis of the deposited data

Results flagged for a closer look

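Pecam1, which encodes the adhesion receptor CD31 with ITIMs of its own, differed in its response to OP9-DLL1 between the cell types by -2.33 ± 0.21 on the log2 scale (cMoP response minus monocyte response, limma-trend adjusted p = 0.0094). It was singled out because the test of that difference passed. In cMoPs it averaged 21.8 ± 2.41 CPM on OP9-DLL1, against 20.6 ± 0.412 CPM on OP9 (log2 0.08 ± 0.15, adjusted p = 0.94). In monocytes it averaged 37.2 ± 1.09 CPM on OP9-DLL1, against 6.98 ± 0.203 CPM on OP9 (2.41 ± 0.15, adjusted p = 0.00011; SD, n = 2 each). Pecam1 was therefore lower in cMoPs than in monocytes on OP9-DLL1 (-0.77 ± 0.15, adjusted p = 0.002) and higher in cMoPs on OP9 (1.56 ± 0.15, adjusted p = 3.3e-05). The call of the difference ended without any single cMoP library, without either monocyte library on OP9-DLL1 or without the variance trend, with an adjusted p of 0.0015 to 0.12 over the libraries left out.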

How the results depend on the processing

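Genes passing in monocytes numbered 855, against 248 without the variance trend, 306 in a fit of the compared libraries alone, 536 with quality-weighted voom and 164 to 2488 with 1 library left out (279 and 164 without OP9-DLL1 replicates 1 and 2, 2488 without OP9 replicate 2). In cMoPs 103 became 37, 315 and 268 in the same 3 settings, 64 with voom and 31 to 49 with 1 library left out; for the difference of responses 7 became 1 without the trend, 24 on log2(CPM + 1) and 0 to 1124 with 1 library left out (1124 without OP9 monocyte replicate 2, 29 without replicate 1, 0 without any other). Listed genes passing went in monocytes to 9 without the trend, 17 in the compared libraries alone and 8 to 38 with 1 library left out, against 28; in cMoPs to 0, 19, 18 with quality-weighted voom and 0 to 2, against 7; and for the difference to 0 without the trend and 0 to 13, against 1. Members passing became 1 in cMoPs with quality-weighted voom (Lilrb4a) and 0 to 1 for the difference with 1 library left out, against 0 in each. The cause was not tested.

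With the replicate block the counts were 156 of all genes and 15 listed genes in cMoPs and 11 genes for the difference. The labels number replicates without pairing them. Deviations of same-numbered libraries from their group means correlated at 0.02 to 0.09, under 0.1 in every pair. With 2 libraries a group this cannot tell whether same-numbered libraries shared animals or a culture day. The block moved no other count by over 1.5 times.

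Some values near 0 changed sign. For the difference of responses these were Cd22 at -0.41, Sirpb1a at -0.13, Sirpb1b at -0.02 and Sirpb1c at -0.04 on log2(CPM + 1), and Inpp5d at 0.05 after centring. With 1 library left out Sirpa ran from -0.11 to 0.35 and Pirb from -0.02 to 0.27 in monocytes, Pira2 from -0.27 to 0.06 in monocytes and from -0.07 to 0.42 in cMoPs, Sirpa from -0.25 to 0.05 and Pecam1 from -0.03 to 0.19 in cMoPs. The difference of responses ran from -0.34 to 0.66 for Cd22, -0.45 to 0.01 for Sirpa, -0.21 to 0.04 for Ptpn6, -0.11 to 0.05 for Inpp5d, -0.40 to 0.84 for Sirpb1a, -0.12 to 0.22 for Sirpb1b and -0.17 to 0.24 for Sirpb1c. Over all single-gene values and settings, 1710 kept direction and call, 97 lost and 20 gained a call, 29 changed sign, and 5 moved beyond the spread of the libraries: Cd22 in monocytes (3.24) and cMoPs (2.82) on log2(CPM + 1), and the differences of responses of Cd22 (0.66) and Lair1 (-1.0 and -0.81) with 1 library left out. The fit of the compared libraries alone was not run for the difference. With 2 libraries a group, 1 library decides many calls, and Cd22 on OP9 rests on 9 to 18 reads a library.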
